A study of Mus musculus with 8 samples.

Results

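The D-type cyclins, their kinases, the inhibitors that hold those kinases and the GADD45 stress proteins were followed in sorted regulatory T cells (Tregs) that lack or carry SRC-3, the transcriptional coactivator encoded by Ncoa3. The 10 genes were chosen by symbol, Ccnd2, Ccnd3, Cdk4, Cdk6, Cdkn1a, Cdkn1b, Cdkn2c, Gadd45a, Gadd45b and Gadd45g, out of 55487 genes in each table, and all 10 passed the filters on low values in both states. Gadd45a passed without a tumor with 8 and 26 reads in the SRC-3KO libraries and 149 and 74 in the controls. A gene at that level can pass the filter through the group in which it is high. Cells came from the spleens of C57BL/6 mice, with a GFP sort in the protocol shared by all samples, and RNA was sequenced after SMART-Seq v4 amplification, which copies full-length cDNA from little input. The groups of 2 libraries each were SRC-3KO with a tumor, control with a tumor, SRC-3KO without a tumor and control without a tumor. Both tumor controls and control replicate 2 without a tumor are named for Foxp3-Cre, a Cre recombinase that the Treg gene Foxp3 drives. Control replicate 1 without a tumor is named wild type, and GFP is absent from its title and source label, so whether it was sorted for GFP is unclear. The SRC-3KO names do not mention Cre, both SRC-3KO names without a tumor carry the word Tam1, and neither the meaning of that word, the deleted exons, the tumor, nor the age of the mice is given in the sources used here. The labels do not say that replicates came from separate animals, so p-values measure only the spread between these samples, which may be technical.

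D-type cyclins bind CDK4 and CDK6 when growth signals arrive, and the active kinases phosphorylate the retinoblastoma protein, which frees E2F factors to switch on the genes of DNA replication. The inhibitor p18 (Cdkn2c) binds CDK4 and CDK6 directly, while p21 (Cdkn1a) and p27 (Cdkn1b) bind cyclin and kinase complexes, p27 being high in resting T cells and p21 being a classic target of p53. GADD45 proteins are induced by stress and by cytokines, bind the kinase MAP3K4 upstream of p38 and JNK, and can slow the cell cycle. T cells enter the cycle mainly with cyclins D2 and D3.

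Libraries without a tumor held raw counts of 27452922 and 31075452 (SRC-3KO) and 25251597 and 24159217 (control) and are given as CPM, counts scaled to the library total. Tumor libraries were deposited as FPKM, fragments scaled to transcript length and library total, with no depth, so the states share no table and tumor was not tested against no tumor. Control replicate 2 with a tumor stood apart. With a tumor, the summed level of 5 neutrophil markers was 1.29 and 0 FPKM in the SRC-3KO libraries, against 2.92 and 3432 FPKM in the controls, and that of 7 monocyte and macrophage markers was 10.3 and 7.78 against 8.28 and 1352 FPKM. The 10 B cell markers summed to 451 and 457 FPKM in the SRC-3KO libraries, against 2045 and 4957 FPKM in the controls, with 9 of 10 below both controls. None of the 7 Treg markers was at 0 throughout, and 6 of 7 were above both tumor controls in both SRC-3KO libraries. Without a tumor 3 of 7 were above and 2 below both controls. Of all genes tested, 27.5% lay above both controls and 24.9% below with a tumor, and 18.3% and 21.0% without one. Control replicate 1 without a tumor stood apart. Foxp3, the factor that defines Tregs, was at 21.2 and 9.33 CPM in the SRC-3KO libraries, against 230.0 and 22.3 CPM for the controls. Tnfrsf18, a receptor abundant on Tregs, was at 2471 and 2228 CPM in the SRC-3KO libraries, against 179 and 1921 CPM for the controls. The neutrophil genes S100a8 and S100a9 reached 56.3 and 114 CPM in control replicate 2 without a tumor and at most 0.0364 CPM in the other 3 libraries. Ncoa3 stood at 47.5 and 27.7 FPKM in SRC-3KO against 37.7 and 45.4 FPKM in control with a tumor, and at 39.8 and 24.5 CPM against 131 and 58.7 CPM without one, which does not check the labels while the deleted exons are unknown. With a tumor the groups overlapped for Ncoa3, so SRC-3KO means the libraries labelled so throughout. In bulk RNA, fewer cells of a type and less RNA per cell cannot be told apart.

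With a tumor, both SRC-3KO libraries held less Cdk6, Cdkn1a and Ccnd3 and more Gadd45g than both controls, while Ccnd2, Cdk4, Cdkn1b, Cdkn2c, Gadd45a and Gadd45b overlapped between the groups. Without a tumor Ccnd3, Cdkn2c and Gadd45a were lower in both SRC-3KO libraries, and Ccnd2 was higher. With a tumor limma called 0 of the 10 members over all genes (0.109% of 12859 genes called), and 3 had an unadjusted p under 0.05, against 16.5% of all genes. Without a tumor edgeR's quasi-likelihood test called 0 of 10 (0.0% of 14860 genes called), and 2 had an unadjusted p under 0.05, against 3.18% of all genes. DESeq2 and limma-voom also called 0 members without a tumor, with 3 and 0 at an unadjusted p under 0.05, and removing the trend of fold changes with GC and length left 0 there. The groups did not overlap for 4 of 10 members with a tumor and for 4 of 10 without, against 52.4% and 39.4% of all genes tested, so these shares are near the background. The median log2 fold change of the members was -0.04 with a tumor (all genes -0.02) and -0.25 without (all genes -0.02).

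**Figure D1:**
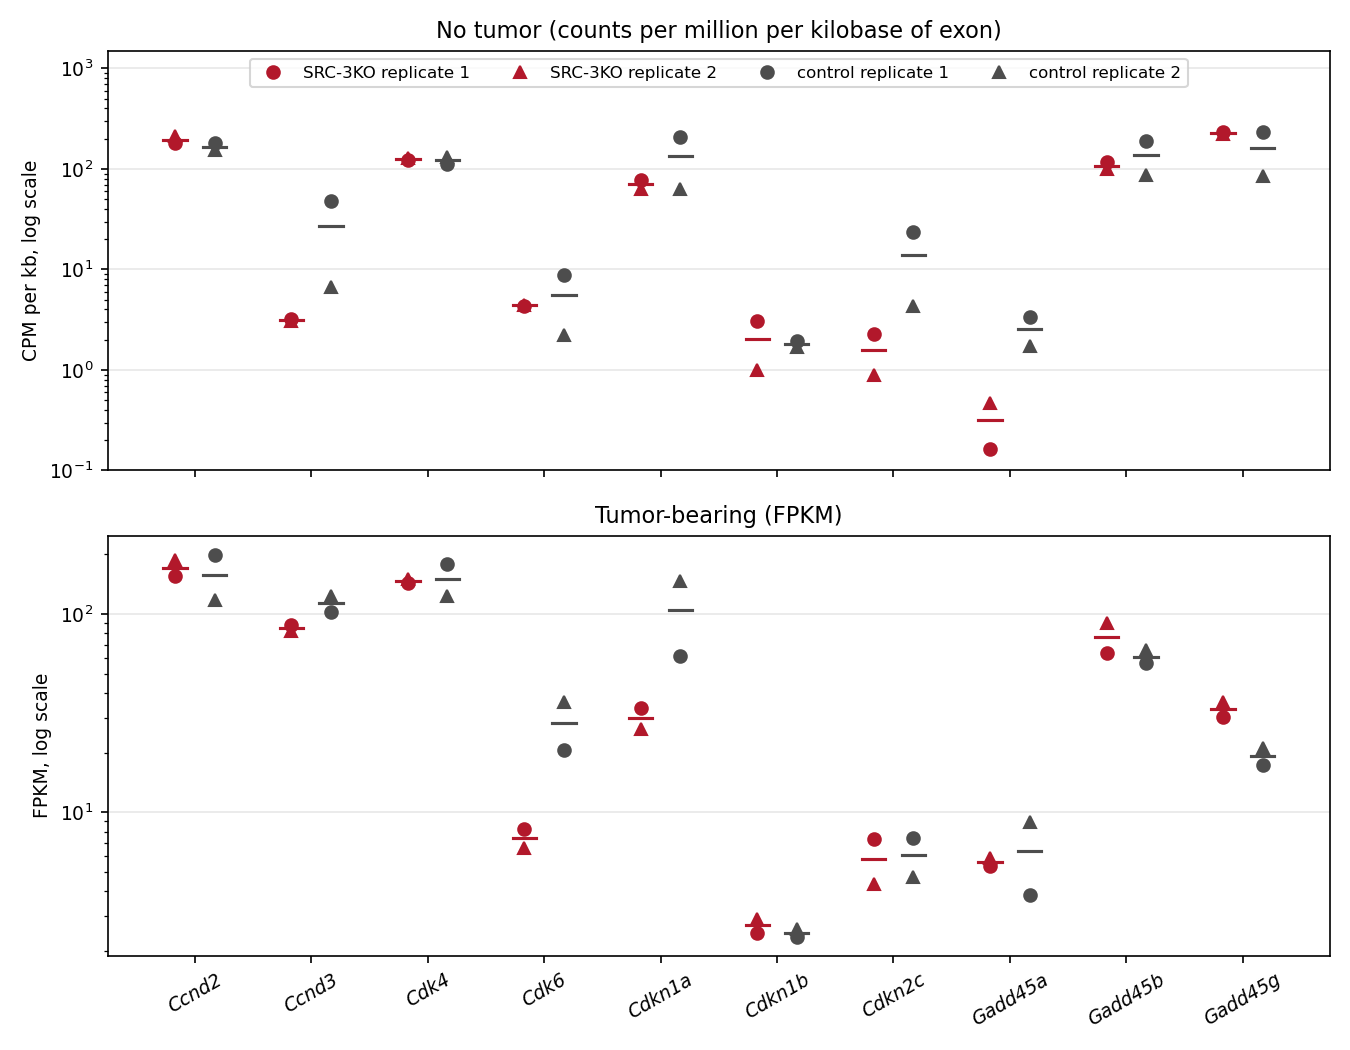
Level of each gene in every library, above without a tumor (CPM per kilobase of exon) and below in tumor-bearing mice (FPKM), both on log axes. Points are libraries and short lines are means of 2 libraries. SRC-3KO (red) lies below control (grey) in both libraries for Ccnd3, Cdkn2c and Gadd45a without a tumor and for Ccnd3, Cdk6 and Cdkn1a with one.

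Cyclin D2 was the leading D-type cyclin in all 4 libraries without a tumor. Ccnd2 (ENSMUSG00000000184, mm10 chromosome 6, 127125162 to 127152193, minus strand) measured 1708 and 1984 CPM in the SRC-3KO libraries, against 1696 and 1439 CPM in the controls. The SRC-3KO libraries were both above the controls, with the nearest pair at 1708 and 1696 CPM. Its fitted log2 ratio was 0.35 (SE 0.90, edgeR adjusted p = 0.932), with an unadjusted 95% interval of -1.85 to 2.55. With a tumor Ccnd2 measured 155 and 188 FPKM in the SRC-3KO libraries, against 198 and 118 FPKM in the controls. The controls lay on either side of the SRC-3KO libraries, and the log2 fold change was 0.16 (SE 0.31, limma adjusted p = 0.813). It was -0.22 without control replicate 2 and -0.16 once the trend with GC and length was taken out.

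Cyclin D3 was lower in both SRC-3KO libraries in both states, and passed the test in neither. Ccnd3 (ENSMUSG00000034165, chromosome 17, 47505051 to 47599691, plus strand) measured 27.9 and 27.0 CPM in the SRC-3KO libraries, against 419 and 58.7 CPM in the controls without a tumor. The SRC-3KO libraries were nearly alike, while the controls differed 7.15-fold. On the log2 scale the fold change was -3.05 (SE 1.18, unadjusted p = 0.0414, edgeR adjusted p = 0.910). Taking out the trend of fold changes with GC and length gave -1.49 (unadjusted p = 0.254). Without control replicate 1 the fold change was -1.02, and without control replicate 2 it was -3.90. The 6 CD8 T and NK cell markers summed to 557 and 374 CPM in the SRC-3KO libraries, against 1331 and 128 CPM in the controls. Nkg7, a gene of cytotoxic granules, made up 1320 CPM of the sum in control replicate 1. Of the 4 libraries, that library was also highest for Cd8a (1.74 CPM) and Gzma (2.38 CPM). It was lowest for Cd8b1 (7.09 CPM) and Klrb1c (0.0396 CPM). Ncr1 was at 0 there, in SRC-3KO replicate 2 and in control replicate 2. The part of these genes in the values without a tumor was not tested. With a tumor Ccnd3 measured 87.7 and 82.3 FPKM in the SRC-3KO libraries, against 103 and 124 FPKM in the controls. The groups did not overlap, at a log2 ratio of -0.40 (SE 0.20, limma adjusted p = 0.367), and B cell markers were higher in the same controls, which was not tested as a part of this difference. Ccnd3 shares 361 exon bases with Bysl on the opposite strand, and the strand setting of the counting is not given. Bysl had 1825 and 2827 counts in SRC-3KO and 9327 and 1890 counts in control, so it was high in the same control library as Ccnd3.

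The balance of the cyclins within a library does not depend on how libraries are scaled. Per length, Ccnd2 made up 98.3% and 98.6% of the D-type cyclin level in SRC-3KO and 79.0% and 95.8% in control without a tumor, with Ccnd3 as nearly all of the rest. With a tumor Ccnd2 made up 63.8% and 69.5% in SRC-3KO and 65.9% and 48.7% in control. Ccnd1 held 0.00838% and 0.00319% in SRC-3KO and 0.0848% and 0% in control without a tumor. The states come from different tables with different length scaling, so the larger share of Ccnd3 in the tumor table was not tested.

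Among the kinases, Cdk6 gave the smallest p of the 10 members with a tumor. Cdk6 (ENSMUSG00000040274, chromosome 5, 3341485 to 3531008, plus strand) measured 8.24 and 6.60 FPKM in the SRC-3KO libraries, against 20.7 and 35.9 FPKM in the controls. The highest SRC-3KO library was below the lowest control, at 0.296 of the control level in the fit, and the means were 7.42 ± 1.16 FPKM over SRC-3KO libraries and 28.3 ± 10.7 FPKM over controls (SD, n = 2 each). The log2 fold change was -1.76 (SE 0.31, unadjusted p = 0.00188), and it did not pass over all genes (limma adjusted p = 0.141). It was -1.37 without control replicate 2, the library with high neutrophil and monocyte markers, and -2.14 without control replicate 1. Control replicate 1 had neutrophil markers at 2.92 FPKM, B cell markers at 2045 FPKM and Cdk6 at 20.7 FPKM. The part of these markers in the difference was not tested.

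Without a tumor the Cdk6 libraries overlapped, at 61.0 and 62.1 CPM in the SRC-3KO libraries, against 124 and 31.5 CPM in the controls. The controls differed 3.93-fold and lay on either side of SRC-3KO. Its fitted log2 ratio was -0.25 (SE 0.92, edgeR adjusted p = 0.948). The ratio was 1.04 when control replicate 1 was left out and -0.97 without control replicate 2. The antisense gene Gm17590 shares 368 exon bases with Cdk6. It measured 31.3 and 24.1 FPKM in the SRC-3KO libraries, against 28.2 and 10.7 FPKM in the controls with a tumor, levels that overlapped between the groups.

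Cdk4, the other kinase partner of the D-type cyclins, had a fold change near 0 in both states. Cdk4 (ENSMUSG00000006728, chromosome 10, 127063534 to 127067920, plus strand) measured 142 and 150 FPKM in the SRC-3KO libraries, against 178 and 123 FPKM in the controls with a tumor. Its log2 fold change was -0.02 (SE 0.25, limma adjusted p = 0.977), with an unadjusted 95% interval of -0.64 to 0.61. Without a tumor it measured 395 and 421 CPM in the SRC-3KO libraries, against 362 and 431 CPM in the controls (log2 ratio 0.17, SE 0.81, edgeR adjusted p = 0.959) with an interval of -1.81 to 2.15. The groups overlapped in both states, and the interval without a tumor still allows more than a 2-fold difference either way. Cdk4 shares 641 exon bases with Tspan31 on the opposite strand. With a tumor Tspan31 measured 82.9 and 85.7 FPKM in the SRC-3KO libraries, against 65.5 and 60.1 FPKM in the controls. Without a tumor it had 2115 and 2231 counts in SRC-3KO and 1353 and 1727 counts in control. The part of Tspan31 in the Cdk4 values was not tested.

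Of the 2 kinases together, Cdk6 held 5.46% and 4.21% of the per-length level in SRC-3KO and 10.4% and 22.6% in control with a tumor. Without a tumor it held 3.46% and 3.31% in SRC-3KO and 7.35% and 1.67% in control. The shares separated the groups with a tumor and overlapped without one. The test of the difference between states gave a log2 difference of -1.85 for Cdk6 (SE 0.97, unadjusted p = 0.112, adjusted p = 0.571).

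The start regions of both kinase genes are shown because Cdk6 separated the groups with a tumor and Cdk4 did not. Each window, from RefSeq on GRCm38.p6, runs from 250 bases before to 50 bases after the start, and capitals mark CACGTG (the E-box that MYC binds) and GGGCGG (a GC box of Sp factors), searched on both strands. The windows are chr5:3343643-3343942 and chr10:127063285-127063584, both on the plus strand.
Cdk6: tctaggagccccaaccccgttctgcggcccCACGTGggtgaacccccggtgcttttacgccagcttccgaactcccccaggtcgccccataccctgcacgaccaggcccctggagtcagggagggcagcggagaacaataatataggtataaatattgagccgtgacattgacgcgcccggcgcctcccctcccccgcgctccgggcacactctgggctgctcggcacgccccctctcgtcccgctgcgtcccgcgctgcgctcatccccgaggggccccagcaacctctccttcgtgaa
Cdk4: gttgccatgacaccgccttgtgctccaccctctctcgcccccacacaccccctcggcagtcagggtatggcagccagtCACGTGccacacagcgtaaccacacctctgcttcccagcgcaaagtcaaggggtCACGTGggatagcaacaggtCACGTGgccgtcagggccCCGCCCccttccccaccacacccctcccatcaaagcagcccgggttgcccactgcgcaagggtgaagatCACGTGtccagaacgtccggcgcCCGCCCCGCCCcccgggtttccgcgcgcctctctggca
The Cdk4 window holds 4 E-boxes, starting at -172, -118, -98 and -11 from the start, and 3 GC boxes, at -80, 13 and 18, of which the last 2 overlap by 1 base. At least 1 E-box stood in 7.15% of 32851 start windows, and 4 or more in 8 of them. The Cdk6 window holds 1 E-box at -220 and no GC box, which is found in 35.66% of windows. Neither window holds the letters TTTCGCGC or TTTGGCGC of E2F factors, GTAAACA of FoxO factors, or TGACTCA or TGAGTCA of AP-1.

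**Figure D2:**
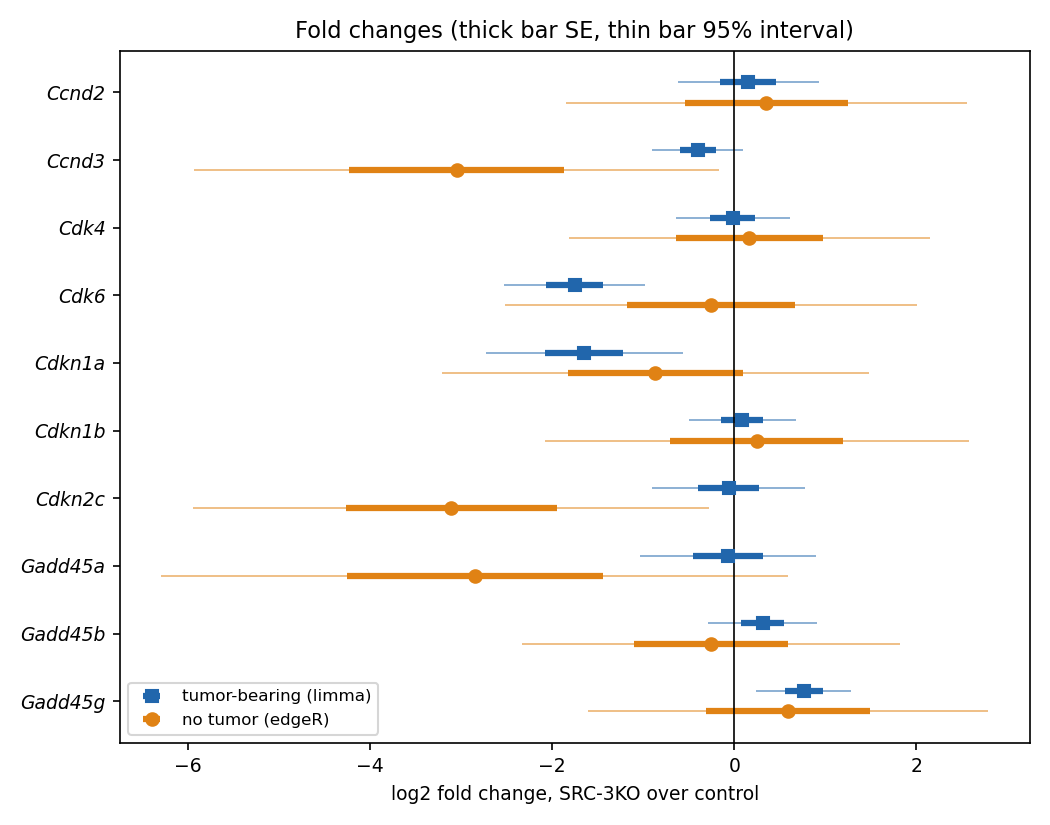
Log2 fold change of each gene, SRC-3KO over control, with a tumor (blue squares, limma) and without (orange circles, edgeR). Thick bars are the SE and thin bars the unadjusted 95% interval from 2 libraries per group. With a tumor the intervals of Cdk6, Cdkn1a and Gadd45g exclude 0, and without a tumor those of Ccnd3 and Cdkn2c do.

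The inhibitor p21 was lower in both SRC-3KO libraries with a tumor and did not pass the test. Cdkn1a (ENSMUSG00000023067, chromosome 17, 29090976 to 29100727, plus strand) measured 33.4 and 26.3 FPKM in the SRC-3KO libraries, against 61.4 and 147 FPKM in the controls. The groups did not overlap, and control replicate 2 held 2.40 times the level of control replicate 1. On the log2 scale the fold change was -1.65 (SE 0.43, unadjusted p = 0.0106) and did not pass over all genes (limma adjusted p = 0.202). Without control replicate 2 it was -1.02, and without control replicate 1 it was -2.27. The antisense gene AC167363.2 shares 273 exon bases with Cdkn1a and measured 0.430 and 2.13 FPKM in the SRC-3KO libraries, against 4.11 and 9.53 FPKM in the controls, so the 2 separated the groups the same way. Neutrophil and monocyte markers were high in control replicate 2 alone, and B cell markers in both controls, and their part in this difference was not tested.

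Without a tumor Cdkn1a measured 277 and 222 CPM in the SRC-3KO libraries, against 735 and 225 CPM in the controls. Control replicate 2 lay between the SRC-3KO libraries, so the groups overlapped. The log2 fold change of -0.87 (SE 0.96, edgeR adjusted p = 0.910) rested on control replicate 1, and was 0.22 without it and -1.53 without control replicate 2. The downstream of its start windows (chr17:29093519-29093818, plus strand, RefSeq, GRCm38.p6) is shown for comparison with the kinases, with GC boxes in capitals.
Cdkn1a: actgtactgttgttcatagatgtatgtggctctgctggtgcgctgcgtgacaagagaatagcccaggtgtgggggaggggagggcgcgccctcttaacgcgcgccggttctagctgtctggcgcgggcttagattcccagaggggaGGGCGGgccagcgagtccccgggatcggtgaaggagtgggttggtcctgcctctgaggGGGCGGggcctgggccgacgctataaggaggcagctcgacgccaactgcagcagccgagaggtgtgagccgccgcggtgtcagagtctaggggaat
It holds 2 GC boxes, at -104 and -46, and no E-box. The other window of Cdkn1a, at chr17:29090729-29091028, holds none of the motifs searched.

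The inhibitor p18 was lower in both SRC-3KO libraries without a tumor, and overlapped with one. Cdkn2c (ENSMUSG00000028551, chromosome 4, 109660876 to 109667189, minus strand) measured 6.08 and 2.38 CPM in the SRC-3KO libraries, against 64.0 and 11.7 CPM in the controls. Both SRC-3KO libraries were below both controls, and the controls differed 5.48-fold. Its fitted log2 ratio was -3.11 (SE 1.16, unadjusted p = 0.0365, edgeR adjusted p = 0.910). Taking out the trend of fold changes with GC and length gave -1.58 (unadjusted p = 0.223). Leaving out control replicate 1 gave -1.40, and leaving out control replicate 2 gave -3.90. With a tumor Cdkn2c measured 7.35 and 4.33 FPKM in the SRC-3KO libraries, against 7.45 and 4.73 FPKM in the controls (log2 ratio -0.06, SE 0.34, limma adjusted p = 0.934) with an interval of -0.91 to 0.78. The tumor libraries overlapped fully. The difference between states was 2.66 (SE 1.25, unadjusted p = 0.0822, adjusted p = 0.571).

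The inhibitor p27 was low in all 8 libraries. Cdkn1b (ENSMUSG00000003031, chromosome 6, 134920401 to 134925513, plus strand) measured 2.47 and 2.91 FPKM in the SRC-3KO libraries, against 2.36 and 2.57 FPKM in the controls with a tumor, the narrowest spread of any member there. Its log2 fold change was 0.09 (SE 0.23, limma adjusted p = 0.862), with an interval of -0.50 to 0.67. Without a tumor it measured 13.8 and 4.54 CPM in the SRC-3KO libraries, against 8.75 and 7.62 CPM in the controls. The SRC-3KO libraries lay on either side of the controls, and the log2 fold change was 0.25 (SE 0.95, edgeR adjusted p = 0.949).

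Of the summed per-length level of these 3 inhibitors, Cdkn1a held 77.3% and 78.4% in SRC-3KO and 86.2% and 95.3% in control with a tumor. Cdkn2c held 16.99% and 12.9% in SRC-3KO and 10.5% and 3.07% in control. Without a tumor the order of the groups was the other way, with Cdkn1a at 93.6% and 97.1% in SRC-3KO and 88.9% and 91.3% in control. Cdkn2c then held 2.72% and 1.38% in SRC-3KO and 10.2% and 6.28% in control. Shares of a sum move against each other by construction, so these 4 sets of values are not independent.

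**Figure D3:**
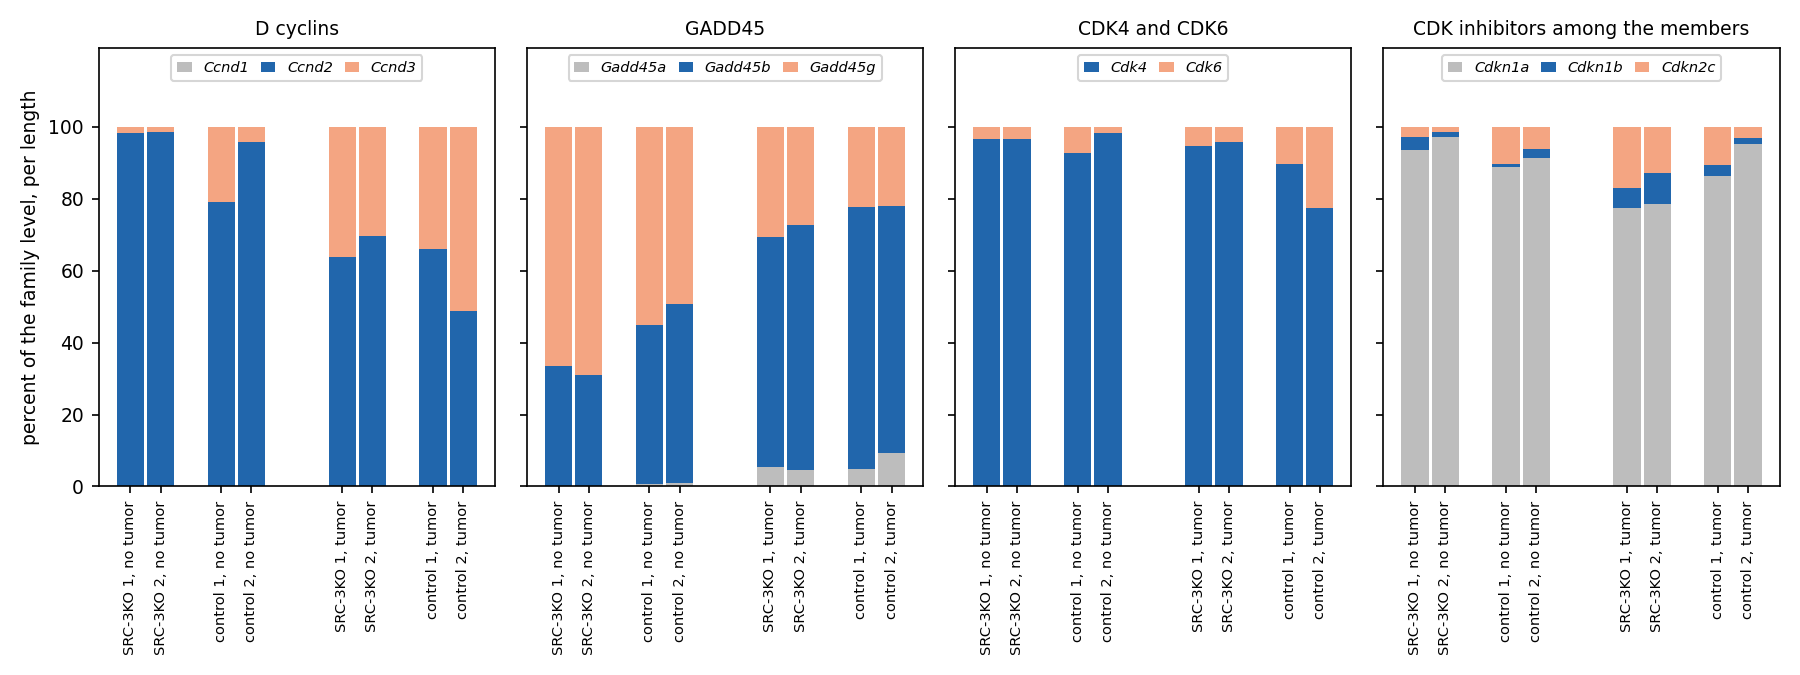
Share of the summed per-length level that each gene held within its family, in every library, with SRC-3KO left of control in each state. Ccnd1 is included in the D cyclins. Gadd45g held 66.6% and 69.1% of GADD45 in SRC-3KO and 55.2% and 49.4% in control without a tumor, and 30.5% and 27.3% against 22.2% and 22.1% with one.

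Of the GADD45 genes, Gadd45g was higher in both SRC-3KO libraries with a tumor. Gadd45g (ENSMUSG00000021453, chromosome 13, 51846678 to 51848468, plus strand) measured 30.3 and 36.1 FPKM in the SRC-3KO libraries, against 17.2 and 21.1 FPKM in the controls. The groups did not overlap, at 1.70 times the control level in the fit, and the means were 33.2 ± 4.11 FPKM over SRC-3KO libraries and 19.2 ± 2.70 FPKM over controls (SD, n = 2 each). On the log2 scale the fold change was 0.76 (SE 0.21, unadjusted p = 0.0123) and did not pass over all genes (limma adjusted p = 0.209). On that scale it rose to 0.90 when control replicate 2 was dropped, and fell to 0.63 when control replicate 1 was dropped instead. Treg markers were higher in the same libraries, in 6 of 7 cases, and their part in this difference was not tested.

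Without a tumor Gadd45g measured 273 and 261 CPM in the SRC-3KO libraries, against 276 and 101 CPM in the controls. Control replicate 1 was above both SRC-3KO libraries and control replicate 2 far below them. The log2 fold change was 0.59 (SE 0.90, edgeR adjusted p = 0.911), 1.48 when control replicate 1 was left out and -0.02 without control replicate 2. The start window of Gadd45g (chr13:51846425-51846724, plus strand, RefSeq, GRCm38.p6) is shown as that of the member that was higher with a tumor, with its E-box, at -142, in capitals.
Gadd45g: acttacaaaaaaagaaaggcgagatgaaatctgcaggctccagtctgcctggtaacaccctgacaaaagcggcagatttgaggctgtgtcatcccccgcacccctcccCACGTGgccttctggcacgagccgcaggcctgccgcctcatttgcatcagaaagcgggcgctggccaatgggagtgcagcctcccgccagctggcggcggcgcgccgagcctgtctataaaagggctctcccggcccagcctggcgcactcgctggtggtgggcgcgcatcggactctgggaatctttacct

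Gadd45b did not separate the groups in either state. Gadd45b (ENSMUSG00000015312, chromosome 10, 80930073 to 80932204, plus strand) measured 63.6 and 90.2 FPKM in the SRC-3KO libraries, against 56.6 and 65.5 FPKM in the controls with a tumor (log2 ratio 0.31, SE 0.24, limma adjusted p = 0.533). Without a tumor it measured 186 and 158 CPM in the SRC-3KO libraries, against 299 and 137 CPM in the controls (log2 ratio -0.26, SE 0.85, edgeR adjusted p = 0.944). The controls lay on either side of SRC-3KO without a tumor. The log2 ratio there was 0.40 when control replicate 1 was left out and -0.77 without control replicate 2.

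Gadd45a was scarce without a tumor. Gadd45a (ENSMUSG00000036390, chromosome 6, 67035096 to 67037457, minus strand) measured 0.291 and 0.837 CPM in the SRC-3KO libraries, against 5.90 and 3.06 CPM in the controls. Both SRC-3KO libraries were below both controls, and the log2 fold change was -2.85 (SE 1.41, unadjusted p = 0.0894, edgeR adjusted p = 0.910). With a library left out it ranged from -3.87 to -2.19. With no filter on low counts it was -2.92, and a gene this low can pass the filter through its higher group. With a tumor Gadd45a measured 5.36 and 5.88 FPKM in the SRC-3KO libraries, against 3.84 and 8.96 FPKM in the controls. The controls lay on either side of SRC-3KO, and the log2 fold change was -0.07 (SE 0.38, limma adjusted p = 0.934). Gadd45a shares 337 exon bases with E230016M11Rik on the opposite strand. Without a tumor E230016M11Rik had 12 and 6 counts in SRC-3KO and 0 and 0 in control, and its part in the Gadd45a values was not tested.

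Within the GADD45 family Gadd45g held the larger share in SRC-3KO in both states. Without a tumor it held 66.6% and 69.1% in SRC-3KO and 55.2% and 49.4% in control. With a tumor it held 30.5% and 27.3% in SRC-3KO and 22.2% and 22.1% in control. Gadd45b held most of the rest, at 33.4% and 30.8% in SRC-3KO and 44.0% and 49.6% in control without a tumor. With a tumor Gadd45b held 64.1% and 68.2% in SRC-3KO and 72.8% and 68.6% in control. No test was made of these shares.

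Ordered by median level per length with a tumor, Ccnd2 (171 FPKM) was followed by Cdk4 (146), Ccnd3 (95.1), Gadd45b (64.5), Cdkn1a (47.4), Gadd45g (25.7), Cdk6 (14.5), Cdkn2c (6.04), Gadd45a (5.62) and Cdkn1b (2.52). The ranges over 4 libraries overlapped between all neighbours in that order except Gadd45a and Cdkn1b, so most places in it are not separated. Without a tumor the order, in CPM per kilobase of exon, was Gadd45g (228), Ccnd2 (181), Cdk4 (126), Gadd45b (108), Cdkn1a (70.5), Ccnd3 (4.93), Cdk6 (4.40), Cdkn2c (3.31), Cdkn1b (1.80) and Gadd45a (1.11). There the ranges of neighbours did not overlap between Ccnd2 and Cdk4 and between Cdkn1a and Ccnd3. The tables were normalized separately, so only the order within each is given.

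**Figure D4:**
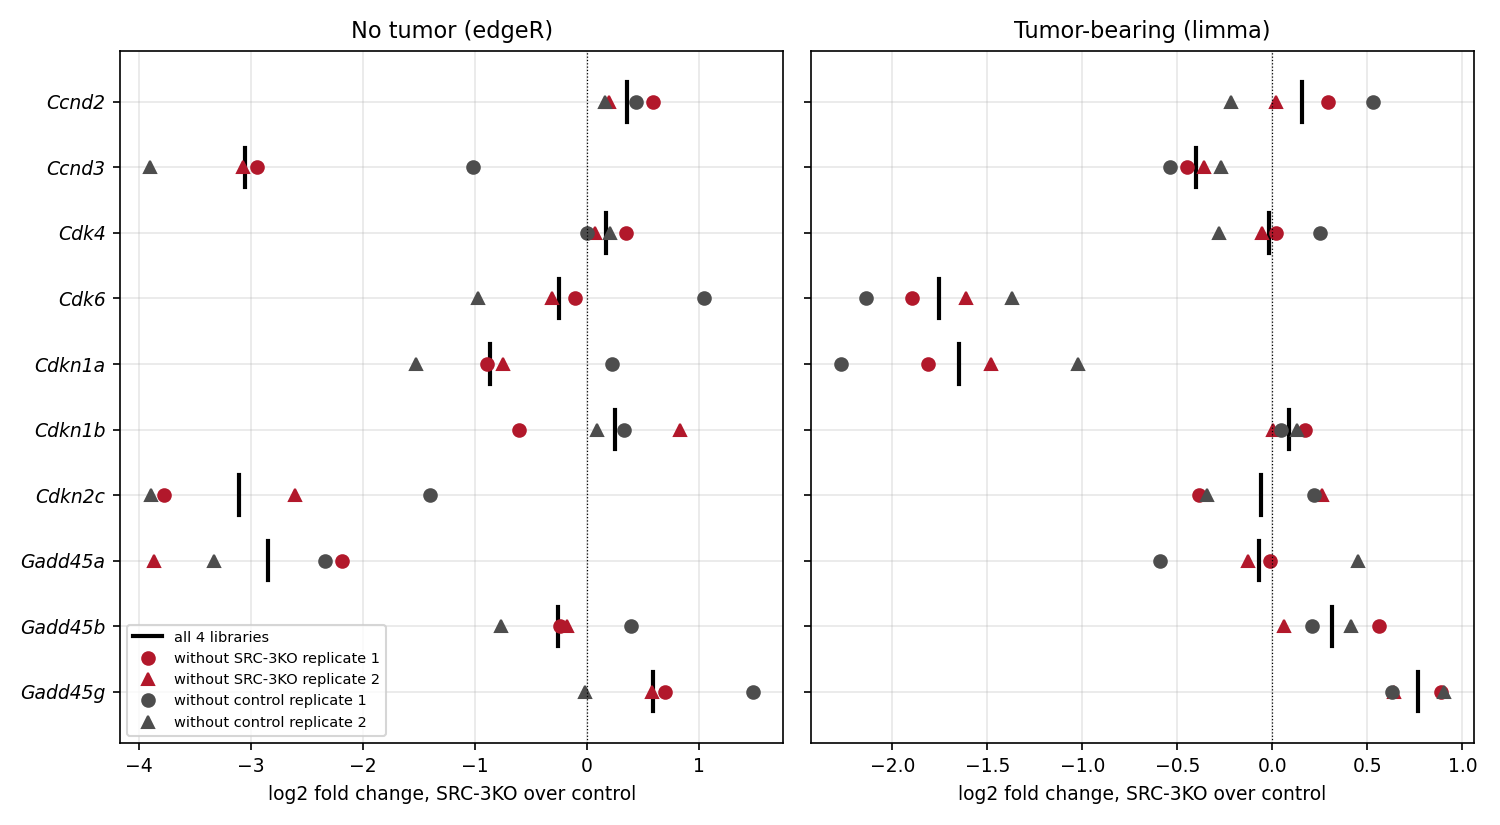
Log2 fold change of each gene with all 4 libraries (black line) and with each library left out in turn, without a tumor (left) and with one (right). Without a tumor Ccnd3 spans -3.90 to -1.02, depending on which control is left out. With a tumor Cdk6 stays between -2.14 and -1.37 and Gadd45g between 0.63 and 0.90.

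The difference of the SRC-3KO effect between the states was called for 0 of the 10 members (0.0% of 11674 genes called), and 0 had an unadjusted p under 0.05, against 4.02% of all genes (1.45% with the lower effect with a tumor). This test subtracts the limma-voom log2 fold change without a tumor, and its estimates are wide. Over all genes the median difference was -0.27. For Ccnd3 the difference was 1.995 (SE 1.11, adjusted p = 0.571) and for Gadd45a 2.85 (SE 1.49, adjusted p = 0.571). For Cdkn1a it was -1.05 (adjusted p = 0.628), with an interval of -3.57 to 1.47. The Gadd45g difference was -0.03 (SE 0.88, adjusted p = 0.988), with an interval of -2.26 to 2.19. With limma on log2(CPM + 1) in place of limma-voom, the difference was 1.96 for Ccnd3 (SE 1.10) and 1.64 for Gadd45a (SE 0.78). The limma-voom differences without control no tumor replicate 2 were 3.50 for Ccnd3 and 3.98 for Cdkn2c. Without control no tumor replicate 1 they were 0.62 and 1.49.

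The rest of the G1 gate, 23 further cyclins, kinases, pocket proteins, E2F factors and inhibitors, had log2 fold changes below 0 for 15 of 20 genes tested with a tumor and 15 of 21 without, against 6620 of 12859 and 7490 of 14860 of all genes. With a tumor limma called 0. At an unadjusted p under 0.05, 1 was higher and 4 were lower, against 10.4% and 6.07% of all genes, and the median log2 fold change was -0.16 (all genes -0.02). E2f1, which drives replication genes, measured 7.15 and 6.55 FPKM in the SRC-3KO libraries, against 14.2 and 12.9 FPKM in the controls, a log2 fold change of -0.89 (SE 0.20, adjusted p = 0.168). Rbl2, the pocket protein p130 of resting cells, measured 13.3 and 14.3 FPKM in the SRC-3KO libraries, against 7.49 and 7.65 FPKM in the controls (log2 fold change 0.79, adjusted p = 0.188). Cks1b, a cofactor in p27 decay, had a log2 fold change of -1.06 (adjusted p = 0.213). The 3 genes, named for the smallest p of the list, did not overlap between the groups. The same held for 52.4% of all genes tested with a tumor.

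Without a tumor 21 of the 23 were tested and edgeR called 0, with 0 higher and 3 lower at an unadjusted p under 0.05, against 0.882% and 2.29% of all genes. The 3 were the E2F activators E2f1, E2f2 and E2f3, at log2 fold changes of -3.37, -3.20 and -2.50 (adjusted p = 0.910 each). E2f3 measured 5.68 and 9.85 CPM in the SRC-3KO libraries, against 65.7 and 29.1 CPM in the controls. For E2f1 these values were 3.97 and 3.67 against 72.4 and 10.7 CPM. For E2f2 they were 3.64 and 2.16 against 48.1 and 7.37 CPM. Control replicate 1 was the highest library for all 3. The list median was -0.85, and 9 of 21 lay below both controls in both SRC-3KO libraries, against 21.0% of all genes.

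Proliferation genes had log2 fold changes below 0 for 13 of 13 tested with a tumor and 11 of 14 without, against 6620 of 12859 and 7490 of 14860 of all genes, and 0 passed the test. With a tumor 13 of 14 were tested, 13 had a log2 fold change below 0 and 12 lay below both controls in both SRC-3KO libraries, against 24.9% of all genes. Their median was -0.56 and limma called 0, with 6 lower at an unadjusted p under 0.05 (6.07% of all genes), led by Aurkb, Rrm2 and Plk1 (-1.72, -1.35 and -1.39). Without a tumor 8 of 14 lay below both controls (21.0% of all genes), with a median of -1.09, 0 called by edgeR, and Aurkb, Ccna2 and Mki67 in the lead (-5.17, -4.59 and -3.32). Control replicate 1 was the high library for these 3, with 284, 362 and 311 CPM, while control replicate 2 had 33.2, 25.6 and 40.2 CPM. The part of dividing cells in the values of the members was not tested.

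Genes of the p53 list lay on both sides of 0, with 8 above and 9 below with a tumor. With a tumor 17 of 18 were tested and limma called 0, with 2 higher and 0 lower at an unadjusted p under 0.05 (10.4% and 6.07% of all genes), and a median of -0.0044 on the log2 scale. Ddit4, an mTOR inhibitor, measured 12.6 and 15.7 FPKM in the SRC-3KO libraries, against 7.07 and 7.63 FPKM in the controls (log2 fold change 0.85, adjusted p = 0.194), and Mdm4, which restrains p53, had a log2 fold change of 1.11 (adjusted p = 0.286). Bax, which promotes cell death, had a log2 fold change of -0.49 (adjusted p = 0.346). Without a tumor 17 were tested, edgeR called 0 with 0 at an unadjusted p under 0.05, and Phlda3, Zmat3 and Sesn2 had the smallest p, at log2 fold changes of -1.86, -1.52 and -4.49. Sesn2 was at 71.8 CPM in control replicate 1 and 0 in control replicate 2.

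FoxO and quiescence genes lay on both sides of 0, with 7 above and 6 below with a tumor. With a tumor 13 of 15 were tested, limma called 0, and 0 were higher and 2 lower at an unadjusted p under 0.05 (10.4% and 6.07% of all genes), with a median of 0.0025. Tsc22d3, a glucocorticoid-induced gene, had a log2 fold change of -0.56 with a tumor and 2.70 without one, and Pik3ip1 one of 0.45 with a tumor. Without a tumor all 15 were tested, edgeR called 0 with 0 at an unadjusted p under 0.05, and the median was 0.23. Foxo3 and Bcl6 had log2 fold changes of -2.15 and -3.84 there. Bcl6 was at 0.437 and 0.483 CPM in the SRC-3KO libraries, against 13.9 and 0 CPM for the controls, so 1 control library carried its fold change.

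Of the stress kinases and partners of GADD45, 14 of 17 were tested with a tumor, 8 with a log2 fold change above 0 and 6 below. limma called 0, with 5 higher and 1 lower at an unadjusted p under 0.05 (10.4% and 6.07% of all genes) and a median of 0.34. Above both controls lay 8 of 14 and below both 6 of 14, against 27.5% and 24.9% of all genes. Tgfb1, a cytokine that can induce Gadd45b, measured 104 and 100.1 FPKM in the SRC-3KO libraries, against 46.8 and 59.7 FPKM in the controls (log2 fold change 0.94, adjusted p = 0.163), and its signal carriers Smad3 and Smad4 had log2 fold changes of 0.73 and 0.53. Without a tumor 16 were tested, edgeR called 0 with 0 at an unadjusted p under 0.05, and the median was -0.30. Tgfb1, Mapk8 and Map3k5 had the smallest p there, at log2 fold changes of -2.10, 2.01 and -1.14. Tgfb1 was at 59.7 and 38.9 CPM in the SRC-3KO libraries, against 400.2 and 39.5 CPM for the controls, and so overlapped, with control replicate 1 alone high.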

How the data were processed

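RNA of splenic Tregs was sequenced in 8 libraries, 4 groups of 2, and 1 library's title and source do not mention the GFP sort of the shared protocol. Per the submitters' processing notes, the authors used mm10 and the tools STAR, featureCounts, edgeR, FastQC and Trim Galore. The authors deposited raw counts of the 4 no-tumor libraries and, as FPKM values from StringTie, the 4 tumor libraries. Tool versions, annotation release and strand setting are unknown. Lengths and positions came from GENCODE vM21 (55227 gene IDs matched).

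Counts were tested with edgeR 4.0.16 (R 4.3.3; filterByExpr, TMM factors, quasi-likelihood), at a common dispersion of 0.791. Tumor values were tested with limma-trend 3.58.1 as log2(FPKM + 1), keeping genes that reached 1 FPKM in 2 libraries, a scale that understates changes of low genes. The states were compared by subtracting the limma-voom log2 fold change from that of limma, using a t distribution with the smaller degrees of freedom. Benjamini-Hochberg adjustment ran over all genes tested, at a threshold of 0.05. DESeq2 1.42.0 was an alternative. The fits were also run on simulated data. For the difference between states, the simulated counts had a dispersion below 0.791, so that run does not show how the test behaves here.

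All 10 members are reported, and of each other list the 3 genes with the smallest p in each state. Of these, 1 is not reported here. Members and lists were chosen with earlier results of these data known. RefSeq start windows matched 9 of the 10 members. Depth is known for the counts alone, and the exact permutation p of 2 against 2 libraries cannot go below 0.333.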

Additional observations from a re-analysis of the deposited data

Results flagged for a closer look

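Among the 3 CDK inhibitors, the shares of Cdkn1a and Cdkn2c separated the groups in opposite directions in the 2 states, which is why they are listed here. The difference between SRC-3KO and control in the Cdkn1a share was -12.9 percentage points with a tumor and 5.22 without, a change of -18.1 between the states. For Cdkn2c it was 8.18 with a tumor and -6.20 without, a change of 14.4. These differences were not tested, the 2 shares depend on each other, and the states come from different tables with different length scaling. The levels of Cdkn1a overlapped between the groups without a tumor, as did those of Cdkn2c with one.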

How the results depend on the processing

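With 2 libraries per group, calls turned on single libraries. Leaving out each library gave 0 to 5 members called without a tumor, 0 to 3 with one and 0 to 2 for the difference between states. Over all genes it gave 0 to 7434 without a tumor, 31 to 2510 with one (14 with all libraries) and 0 to 5718 for the difference. These fits assume that the lone library varies like the others. Without a tumor DESeq2 called 87 genes and no filter on low counts 70, against 0. With a tumor the count was 7 with a pseudocount of 0.1, 1 without a filter, 30 at a filter of 5 FPKM, 6 under median-of-ratios scaling, 4 rescaled to a common sum, 3 without antigen receptor segments, haemoglobins and ribosomal proteins, and 72 with the replicate block; 0 members were called in each. P1 and P2 share no stated origin, and deviations of same-numbered tumor libraries correlated at 0.0357. Without a tumor and for the difference between states, no paired analysis was possible because of missing shared numbers in the no-tumor names.

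Cdk6, Cdkn1a, Ccnd3, Gadd45b and Gadd45g kept their sign under all 13 alternatives with a tumor. Some uncalled values changed sign elsewhere, among them Cdkn1a (-0.87) and Gadd45g (0.59) without a tumor, and the cause was not tested. With a tumor, the common sum gave 0.23 for Cdk4, 0.16 for Cdkn2c and 0.16 for Gadd45a and moved the median of all genes to 0.21, leaving out the abundant gene classes gave 0.20, 0.13 and 0.13, quantile normalization gave 0.26 for Cdk4 and -0.0079 for Cdkn1b, and removing the GC and length trend gave -0.16 for Ccnd2, 0.020 for Cdk4 and 0.13 for Gadd45a. Without a tumor, limma-voom gave 0.095 for Cdk6 and moved the median of all genes to 0.24, a filter of 10 CPM gave -0.026 for Cdk4, and removing the trend gave 0.24 for Cdk6, -0.028 for Cdkn1b and 0.39 for Gadd45b. It also moved Ccnd3 to -1.49 and Cdkn2c to -1.58, leaving 0 members at an unadjusted p under 0.05, against 2.

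Leaving out a library changed further signs. Without a tumor the ranges were -0.0026 to 0.34 for Cdk4, -0.97 to 1.04 for Cdk6, -1.53 to 0.22 for Cdkn1a, -0.61 to 0.83 for Cdkn1b, -0.77 to 0.40 for Gadd45b and -0.016 to 1.48 for Gadd45g. With a tumor they were -0.22 to 0.53 for Ccnd2, -0.28 to 0.25 for Cdk4, -0.39 to 0.26 for Cdkn2c and -0.59 to 0.45 for Gadd45a. For the difference they were -0.57 to 0.18 for Ccnd2, -0.45 to 0.085 for Cdk4, -0.75 to 0.68 for Cdkn1b, -0.079 to 1.09 for Gadd45b and -0.72 to 0.78 for Gadd45g.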
